A study of Mus musculus with 20 samples.

Results

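The protein part of the cytosolic ribosome was followed in mouse liver through the 86 protein-coding genes whose symbols begin with Rpl or Rps, out of 32400 genes in the table. Ribosomal S6 kinases and pseudogenes were left out by name, and the rule itself uses symbols only. Of the 86 genes, 77 encode ribosomal proteins proper, 46 of the large subunit and 31 of the small subunit. The other 9 are the paralogues Rpl3l, Rpl7l1, Rpl10l, Rpl22l1, Rpl36al, Rpl39l and Rps27l, the retrotransposed copy Rps27rt, and Rps19bp1, which encodes a protein that binds Rps19 and is no ribosomal protein itself. The ribosomal components Rack1 and Fau carry other names and are given separately.

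All 20 libraries came from liver of C57BL/6NTac mice. In the HFHF Flcn gRNA group (n = 8), a guide RNA (gRNA) against Flcn was given in the viral vector AAV8, which reaches hepatocytes well, and the diet was high in fat and fructose (HFHF). In the HFHF control group (n = 7), mice on the same diet received PBS as vehicle, so the controls carried neither virus nor guide. Mice of the chow control group (n = 5) had no treatment and ate standard chow. A guide acts only together with a nuclease, and neither its source nor the age or sex of the mice was stated in the labels. Nor do the labels say that every library is from its own mouse, so a p-value speaks only of variation among these libraries, which may be technical. Flcn averaged 17.8 ± 2.40 CPM in gRNA libraries, 20.7 ± 2.98 CPM in HFHF control and 22.2 ± 6.03 CPM in chow control libraries (SD), where CPM is counts scaled to library size with TMM factors. The gRNA difference from HFHF control did not pass the test (log2 fold change -0.22, SE 0.12, adjusted p = 0.140, edgeR), and transcript level does not measure editing.

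The cytosolic ribosome joins a large subunit, which forms peptide bonds, to a small subunit, which decodes the mRNA, and both are built of ribosomal RNA and many proteins. Most ribosomal protein mRNAs begin with a run of pyrimidines, the 5′ terminal oligopyrimidine (TOP) motif, through which the kinase mTORC1 controls their translation by way of LARP1 and the 4E-BP proteins. Flcn encodes folliculin, which acts on the Rag GTPases that bring mTORC1 and the MiT/TFE transcription factors to the lysosome. RNA sequencing measures how much of these mRNAs is present and not how well they are translated.

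Start-site sequence was read from RefSeq (build GRCm38.p6), which held a window of 250 bases before to 50 bases after the start for 66 of the 86 genes and for 57 of the 77 ribosomal proteins proper. A pyrimidine tract was searched on the sense strand as a pyrimidine run that, counted from its first C, had at least 5 bases of C or T and began within 10 bases of the RefSeq start. It was present in 27 of 57 ribosomal protein windows (47.4%), against 4828 of 16526 windows of all protein-coding genes (29.2%). Annotated starts can be off by several bases, so a window without a tract says only that these letters are not there. Below are the 40 bases before and 20 bases after the start of 4 genes with a tract, with each run that meets the rule in capitals. They are shown because Rpl34 and Rpl36a fell with the gRNA and Rps21 and Rps27 did not pass the test, while all of them have the tract.
Rpl34 (chr3:130730379-130730438, minus strand): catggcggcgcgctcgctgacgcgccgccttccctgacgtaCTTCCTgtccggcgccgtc
Rpl36a (chrX:134585614-134585673, plus strand): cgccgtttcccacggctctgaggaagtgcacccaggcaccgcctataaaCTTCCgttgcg
Rps21 (chr2:180257339-180257398, plus strand): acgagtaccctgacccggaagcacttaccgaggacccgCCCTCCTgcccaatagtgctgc
Rps27 (chr3:90213629-90213688, minus strand): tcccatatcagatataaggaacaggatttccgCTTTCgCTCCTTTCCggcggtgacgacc
The tract was present in 18 of 35 ribosomal protein windows of genes that were lower with the gRNA (51.4%) and in 9 of 22 of genes that did not pass (40.9%). Across the 300 bases, on either strand, CCGGAAG, a core bound by ETS-family factors, was in 22 of 57 ribosomal protein windows (38.6%) and 12.4% of all windows. AAGATGGC, the letters of the YY1 motif, was in 4 of 57 (7.02%) against 3.3% of all. GGGCGG, a GC box, was in 34 of 57 (59.6%) against 48.3%, and CACGTG, an E-box, in 5 of 57 (8.77%) against 8.1%. TATAAA was in 5 of 57 (8.77%) against 12.9%. These matches are descriptions of letters, and binding was not measured.

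Total estimated counts ran from 13974379 to 19586576 per library. The filter on low counts kept 83 of the 86 genes, the lowest of them Rps27rt at 4.55 ± 1.11 CPM in gRNA, 4.58 ± 1.41 CPM in HFHF control and 3.91 ± 0.929 CPM in chow control libraries (SD). The median coefficient of variation between libraries was 9.55% in gRNA, 8.93% in HFHF control and 8.22% in chow control libraries. The 3 genes removed were Rpl10l with 0 counts over all libraries, which allows at most 0.00922 CPM, Rpl39l with 5 counts and Rpl3l with 15 counts. At least 1 non-whole estimated count occurred in 35 of the 86 genes, so part of their reads may have been shared out among similar loci. The counting tool is not given, so this was not tested. The other 51 had whole values throughout.

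Levels between genes were compared per kilobase of the principal GENCODE M21 transcript. Rpl41, which encodes the smallest ribosomal protein, averaged 480 ± 60.7 CPM per kilobase in gRNA, 562 ± 94.0 in HFHF control and 429 ± 30.2 in chow control libraries (SD). Rpl10, a protein that joins the large subunit late in its assembly, averaged 449 ± 34.9, 505 ± 26.4 and 516 ± 42.4 CPM per kilobase in gRNA, HFHF control and chow control libraries. Rps2, near the mRNA entry of the small subunit, averaged 383 ± 16.8, 365 ± 20.8 and 422 ± 31.0 CPM per kilobase in the same order of groups, and Rpl23a stood beside it at 386 CPM per kilobase over all libraries. Rpl41 stood above Rpl10 in the gRNA and HFHF control libraries, by less than the SD of Rpl41, and below it in chow control libraries. At the low end stood Rps19bp1 at 7.64 CPM per kilobase over all libraries, Rps27rt at 11.8 and Rps20 at 24.4. The place of Rps20 rests on a principal transcript annotated at 3706 bases, longer than that of any other gene of the family. Of the paralogues, Rpl36al reached 274 CPM per kilobase, Rps27l 199.8, Rpl22l1 52.9 and Rpl7l1 43.45.

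The ribosomal protein mRNAs moved together from library to library. Their summed level was 11654 ± 914 CPM in gRNA libraries, 13062 ± 1013 CPM in HFHF control and 12817 ± 949 CPM in chow control libraries (SD). The gRNA libraries ran from 10542 to 13030 CPM with a median of 11456 CPM, and the HFHF control libraries from 11612 to 14364 CPM with a median of 12936 CPM. The 5 chow control libraries stood at 14439, 12029, 12299, 12786 and 12532 CPM. The ranges of all groups overlapped, and the highest gRNA library lay above the median HFHF control library.

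**Figure D1:**
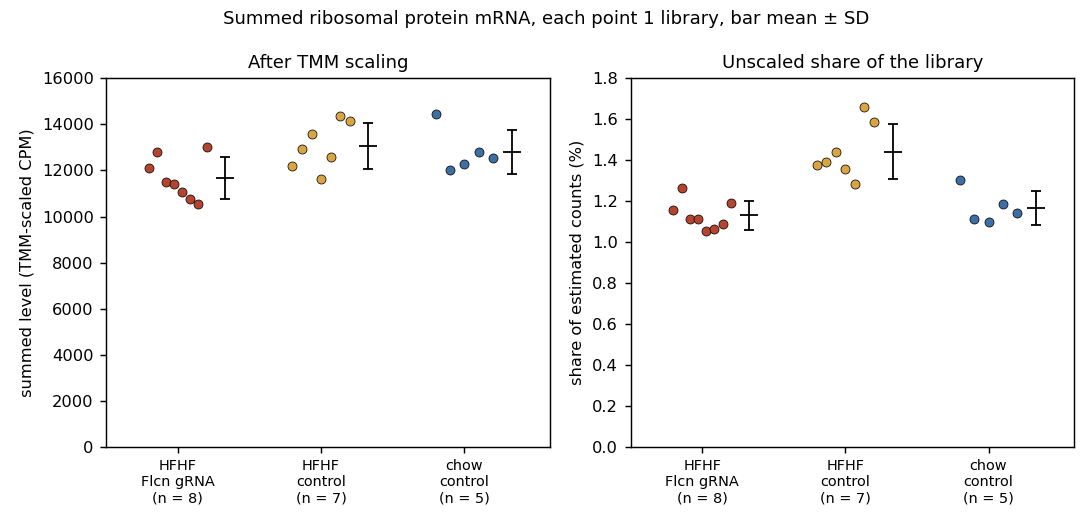
Summed level of the ribosomal protein genes in each library, as TMM-scaled CPM on the left and as percent of all estimated counts on the right; each point is 1 library and bars are mean ± SD. The scaled sums overlap between groups, while the unscaled shares of gRNA libraries (1.05 to 1.27%) lie below those of HFHF control libraries (1.28 to 1.66%).

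As a plain share of estimated counts, without scaling, these genes took 1.05 to 1.27% of gRNA libraries, 1.28 to 1.66% of HFHF control and 1.10 to 1.30% of chow control libraries. On this scale the gRNA and HFHF control libraries did not overlap. TMM factors averaged 0.973 in gRNA, 1.105 in HFHF control and 0.912 in chow control libraries, so scaling narrowed the distance of HFHF control from both other groups. The direction of the sum was the same with and without scaling in each comparison.

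Single libraries shifted nearly the whole family. Replicate numbers here follow the listed order of the libraries within a group and do not come from the labels. In gRNA replicate 8, 74 of 83 genes lay above their group mean, with a median deviation of 0.21 on the log2 scale, while in gRNA replicate 7 only 2 of 83 did (median -0.15). In HFHF control replicate 6 all 83 genes lay above the group mean (median 0.15), and in replicate 4 only 1 did (median -0.18). In chow control replicate 1, 80 genes lay above (median 0.18), against 3 in chow replicate 2 (median -0.09). The title of gRNA replicate 8 differs from all other titles in its second number, whose meaning the labels do not give. That library also had the largest share of counts in its 10 most abundant genes, at 28.0% against 21.3 to 25.7% elsewhere.

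**Figure D2:**
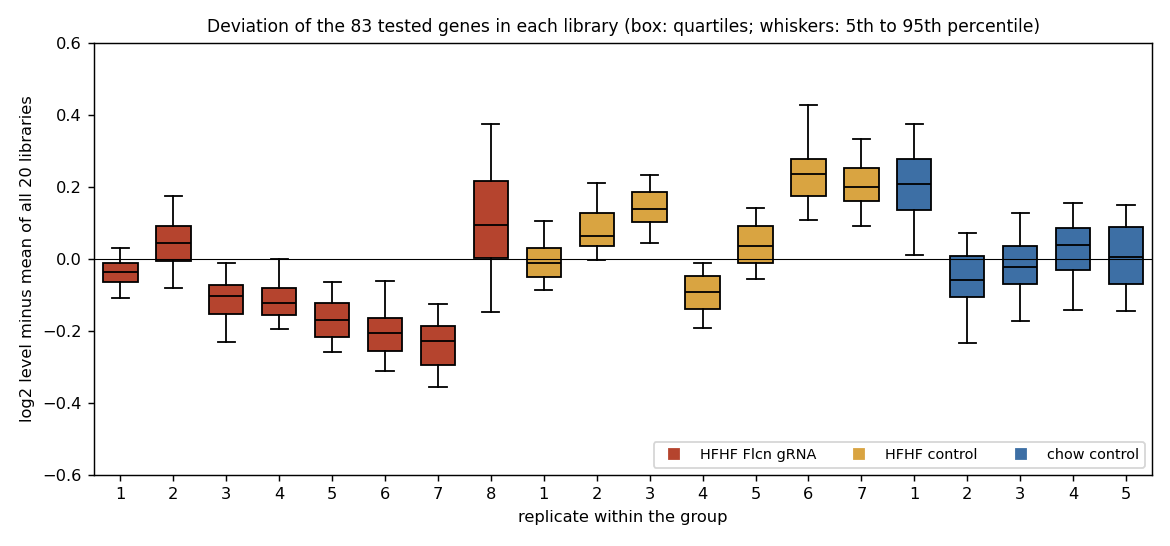
Deviation of the 83 tested ribosomal protein genes from their mean over all 20 libraries, on the log2 scale, for each library; the line is the median, the box the quartiles and the whiskers the 5th to 95th percentile. The boxes move up and down as a block, with gRNA replicate 7 lowest at a median of -0.23 and HFHF control replicate 6 highest at 0.24.

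Relative to its level, the balance between subunits shifted less than the sum between gRNA libraries and either control group. Between HFHF control and chow control libraries the balance and the sum shifted by a similar proportion. Large-subunit over small-subunit ribosomal protein CPM was 1.58 ± 0.00711 in gRNA, 1.59 ± 0.00573 in HFHF control and 1.56 ± 0.00667 in chow control libraries (SD). It ran from 1.569 to 1.590 in gRNA libraries and from 1.578 to 1.594 in HFHF control libraries, and these overlapped. The 5 chow control libraries lay at 1.546, 1.556, 1.561, 1.563 and 1.559, below every library of both HFHF groups. The ratio is taken within a library and does not depend on scaling.

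Livers with the Flcn gRNA were set against HFHF control livers on the same diet first. About as many ribosomal protein mRNAs fell in gRNA livers as did not pass: 43 of the 83 tested genes fell (51.8%), 0 rose and 40 did not pass (adjusted p under 0.05, edgeR's quasi-likelihood test, Benjamini-Hochberg over 13667 genes). Of all genes tested, 19.0% were lower and 19.6% were higher in this contrast. The median log2 fold change was -0.17 for the ribosomal protein genes and 0.01 for all genes, and 82 of 83 lay below 0, within a range of -0.39 to 0.07. At an unadjusted p under 0.05, 54 were lower and 0 higher, against 3136 lower and 3240 higher of all 13667 genes. DESeq2 called 47 of 85 lower (55.3%) and 0 higher, against 12.6% of all genes lower and 11.7% higher. In no gene did all gRNA libraries lie below all HFHF control libraries, against 6.02% of all genes below and 5.07% above. Both subunits shared the pattern, with 24 of 46 large-subunit and 19 of 31 small-subunit genes lower, and medians of -0.17 and -0.19. None of the 6 tested paralogues, retrocopies and binding proteins passed. In bulk liver RNA, fewer cells of a type and less RNA per cell cannot be told apart.

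The count depended on single libraries. It was 22 without HFHF control replicate 6 (26.5%, against 17.1% of all genes lower) and 26 without HFHF control replicate 7 (31.3%, against 17.0%). Without gRNA replicate 6 or gRNA replicate 7 it was 28 (33.7%, against 17.7% and 19.1%). Without gRNA replicate 8 it was 61 (73.5%, against 20.1%).

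Cell-type markers moved in the same contrast. Of 11 monocyte-derived macrophage markers 9 were lower, with a summed level of 105 to 251 CPM in gRNA libraries, 196 to 510 CPM in HFHF control and 31.1 to 50.6 CPM in chow control libraries. Of stellate cell markers 7 of 10 were lower, of cholangiocyte markers 4 of 5 tested and of neutrophil markers 3 of 3 tested. Spp1 is counted in both the monocyte-derived macrophage and the cholangiocyte list, so these lists are not separate. Kupffer cell markers were higher in 3 and lower in 4 of 10, lymphocyte markers higher in 4 and lower in 5 of 10, and endothelial markers higher in 3 of 8. Of 11 hepatocyte markers 5 were higher and 1 lower. Hepatocyte markers summed to 66590 to 101200 CPM in gRNA, 63240 to 85150 CPM in HFHF control and 96780 to 118900 CPM in chow control libraries. Every marker had a mean level above 0 in each group except the neutrophil marker Ly6g, which was at 0 in chow control. The part of cell makeup in the ribosomal protein result was not tested.

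The largest falls were in small-subunit genes. Rps12 (chr10:23785183-23787275), at the beak of the small subunit, had 83.9 CPM in its lowest, 87.5 CPM in its median and 106 CPM in its highest gRNA library, against 97.9, 118 and 144 CPM in HFHF control libraries. Chow control libraries had 109, 82.4, 91.9, 98.2 and 93.6 CPM. The top 2 of the gRNA libraries reached into the HFHF control range and the other 6 lay below it. The log2 fold change of gRNA against HFHF control was -0.39 (SE 0.08, adjusted p = 0.000492, edgeR).

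Rps15a (chr7:118104372-118116188), a small-subunit protein that contacts the 18S rRNA, had 61.8, 72.0 and 90.1 CPM in its lowest, median and highest gRNA library, against 77.9, 92.4 and 106 CPM in HFHF control. In chow control it had 87.4, 67.7, 68.7, 73.1 and 76.0 CPM. Of the 8 gRNA libraries, only replicate 8 entered the HFHF control range. The log2 fold change was -0.34 (SE 0.08, adjusted p = 0.00103, edgeR).

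Rps16 (chr7:28350652-28353155), whose tail reaches the decoding centre, had 86.7, 96.2 and 109 CPM in its lowest, median and highest gRNA library, against 104, 117 and 135 CPM in HFHF control libraries. The log2 fold change was -0.31 (SE 0.07, adjusted p = 0.00116, edgeR). The Rps16 values were mostly not whole, so some of its reads may have been shared with other loci. Rps19 (chr7:24884371-24889806), the gene most often mutated in human Diamond-Blackfan anaemia, had 58.7, 66.4 and 74.3 CPM in gRNA against 68.7, 78.7 and 93.9 CPM in HFHF control libraries. Its log2 fold change was -0.29 (SE 0.07, adjusted p = 0.00183, edgeR). For both genes 6 of the 8 gRNA libraries lay below every HFHF control library.

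**Figure D3:**
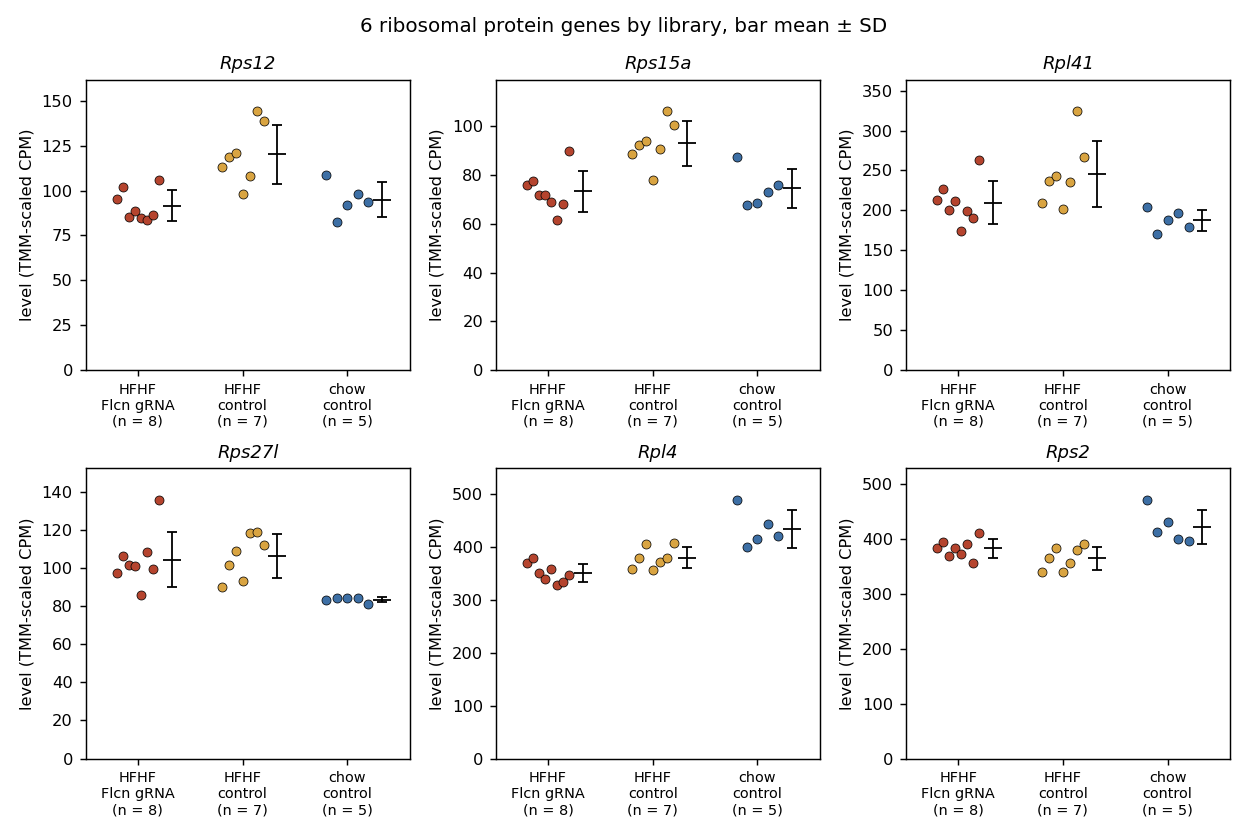
Level of 6 ribosomal protein genes in each library, in TMM-scaled CPM from 0; each point is 1 library and bars are mean ± SD. Rps12 and Rps15a are highest in HFHF control, Rps27l is higher in both HFHF groups than in chow control, and Rpl4 and Rps2 are highest in chow control replicate 1.

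The ribosomal stalk, which recruits elongation factors to the large subunit, is built from Rplp0 as its base and Rplp1 and Rplp2 as its arms, and all fell. Rplp2 (chr7:141447370-141451585) had 42.4, 45.55 and 52.3 CPM in its lowest, median and highest gRNA library, against 47.7, 56.7 and 63.7 CPM in HFHF control libraries. The log2 fold change was -0.27 (SE 0.07, adjusted p = 0.00212, edgeR), and 3 gRNA libraries reached into the HFHF control range. Rplp0 (chr5:115559467-115563727) had 172, 199 and 226 CPM in gRNA libraries against 213, 230.5 and 245 CPM in HFHF control libraries. All but 1 of the gRNA libraries lay below the HFHF control range for Rplp0 (log2 fold change -0.20, SE 0.06, adjusted p = 0.0122, edgeR). Rplp1 (chr9:61913284-61914542) averaged 118 ± 11.9 CPM in gRNA and 137 ± 13.1 CPM in HFHF control libraries (log2 fold change -0.21, SE 0.07, adjusted p = 0.0209, edgeR).

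Among other large-subunit genes, Rpl18 (chr7:45715457-45720836) had 73.1, 82.9 and 95.8 CPM in its lowest, median and highest gRNA library, against 88.6, 103 and 109 CPM in HFHF control libraries. It fell by 0.27 on the log2 scale (SE 0.06, adjusted p = 0.000896, edgeR), with 6 of 8 gRNA libraries below the HFHF control range. Rpl10, the second-highest gene per length, averaged 359 ± 27.9 CPM in gRNA and 403 ± 21.1 CPM in HFHF control libraries (log2 fold change -0.17, SE 0.06, adjusted p = 0.0336, edgeR). Rpl5 and Rpl11 bind the 5S rRNA and, outside the ribosome, the p53 regulator Mdm2. Rpl5 was lower at -0.16 (SE 0.06, adjusted p = 0.0393, edgeR), a call that was lost in 8 alternatives, with values of -0.16 to -0.13. Rpl11 was at -0.15 (SE 0.07) and did not pass.

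Several well-known members did not pass. Rps6, the substrate of the S6 kinases downstream of mTORC1, averaged 267 ± 20.4 CPM in gRNA and 288 ± 18.5 CPM in HFHF control libraries. Its log2 difference of -0.11 had a 95% interval of -0.24 to 0.01. Rps27a, made as a fusion with ubiquitin, was at -0.13 with an interval of -0.27 to 0.01. Rps2 was the only gene above 0, at 0.07, with 382 ± 16.8 CPM in gRNA and 365 ± 20.8 CPM in HFHF control libraries and an interval of -0.05 to 0.18. Rps27rt (-0.01) and Rps27l (-0.02) stood close to 0. Rpsa, also described as a laminin receptor, fell by 0.19 (SE 0.06, adjusted p = 0.0230, edgeR), and this call was lost without HFHF control replicate 7 (-0.16).

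**Figure D4:**
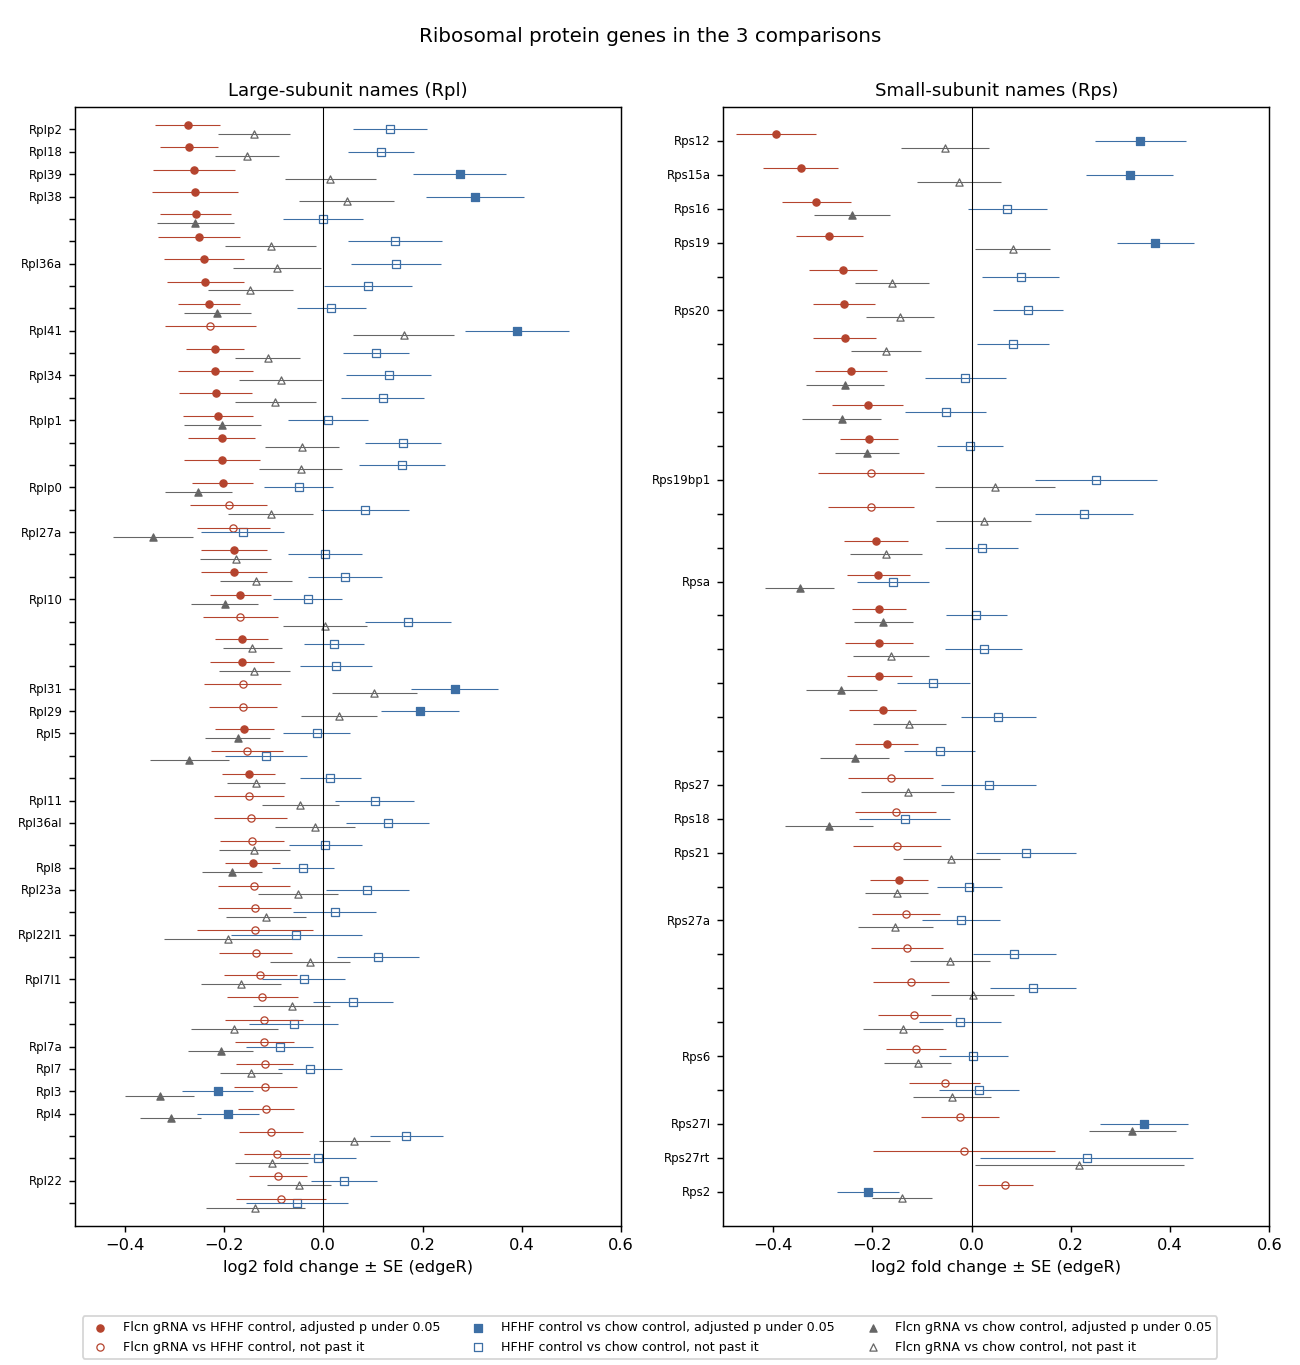
Log2 fold change ± SE from edgeR for 81 of the 83 tested genes in the 3 comparisons, large-subunit names on the left and small-subunit names on the right, with names given for the genes described in the text; filled symbols passed an adjusted p of 0.05. Nearly all gRNA against HFHF control values lie between -0.39 and 0, while the HFHF control against chow control values spread to both sides of 0.

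Of the components with other names, Rack1, a scaffold on the small subunit, averaged 127 ± 8.32 CPM in gRNA and 155 ± 9.80 CPM in HFHF control libraries. It had 116, 127 and 140.4 CPM in its lowest, median and highest gRNA library, all below the lowest HFHF control library at 144 CPM. It was lower at -0.29 (SE 0.06, adjusted p = 0.000468, edgeR). Fau (-0.06, SE 0.08), made as a fusion with a ubiquitin-like protein, did not pass.

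Genes that serve the ribosome were mixed in this contrast, in which 19.0% of all genes were lower and 19.6% were higher. Of 17 translation factors and related genes whose mRNAs carry a TOP motif, 4 fell and 1 rose, with a median of -0.04. Nap1l1, a histone chaperone, was the one with the lowest p, at 76.1 ± 5.83 CPM in gRNA against 111.5 ± 10.97 CPM in HFHF control libraries (log2 fold change -0.55, SE 0.07, adjusted p = 1.31e-06, edgeR). Of 36 ribosome biogenesis genes 4 fell and 2 rose (median -0.01). Eif6, which keeps immature large subunits apart from small ones, fell to 27.55 ± 3.10 CPM in gRNA against 40.8 ± 4.38 CPM in HFHF control libraries (-0.57, SE 0.07). The nucleolar proteins Nop58 (-0.46, SE 0.10) and Nop56 (-0.50, SE 0.12) fell as well. Of 14 RNA polymerase I genes 1 fell and 0 rose. Of 9 regulators of TOP mRNAs 2 rose, the translational repressor gene Eif4ebp2 (0.40, SE 0.06) and the S6 kinase gene Rps6kb1 (0.15, SE 0.05). Of 78 mitochondrial ribosomal proteins, which belong to a separate ribosome, 26 rose and 1 fell, with a median of 0.12.

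HFHF control livers were then set against chow control livers, which differ in diet and also in the PBS injection. Here the ribosomal protein genes did not move as a block: 9 of 83 rose, 3 fell and 71 did not pass, with a median log2 fold change of 0.03. Among all genes 28.1% were higher and 28.9% were lower, against 10.8% and 3.61% of the ribosomal protein genes. The values ran from -0.21 to 0.39. In Rps19 and Rps27l every HFHF control library lay above every chow control library, and in Rps2 every one lay below, against 18.8% of all genes above and 18.1% below.

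The counts depended on scaling and on 1 chow library. With upper-quartile scaling 29 genes were higher (34.9%) and 0 lower, against 33.8% of all genes higher and 21.9% lower under that scaling. Without chow control replicate 1, 21 were higher (25.3%) and 0 lower, against 28.4% of all genes higher and 24.2% lower. Leaving out gRNA libraries, which enter the same fit, also moved the higher count. It was 18 without gRNA replicate 8 (21.7%, against 30.7% of all genes higher). Without gRNA replicate 5 it was 14 (16.9%, against 30.1% of all genes). The lower count was 1 without chow control replicate 4 or HFHF control replicate 5. With no filter on low counts it was 0.

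Rpl41 (chr10:128548114-128549305) had 202, 237 and 325 CPM in its lowest, median and highest HFHF control library, against 204, 171, 188, 196 and 179 CPM in chow control libraries. Only the lowest HFHF control library lay inside the chow control range. It rose by 0.39 (SE 0.105, adjusted p = 0.00308, edgeR), although none of its values were whole numbers, so its reads may have been shared with other loci. Rps19 had 68.7, 78.7 and 93.9 CPM in HFHF control libraries, against 68.4, 58.8, 58.6, 65.8 and 60.3 CPM in chow control. It rose by 0.37 (SE 0.08, adjusted p = 0.000316, edgeR).

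Rps12 (0.34, SE 0.09, adjusted p = 0.00315, edgeR) and Rps15a (0.32, SE 0.09, adjusted p = 0.00343, edgeR) rose on the HFHF diet. Rpl38, known in mice for its part in the translation of Hox mRNAs, had 68.4, 85.7 and 93.3 CPM in HFHF control libraries, against 72.6, 61.1, 66.1, 67.4 and 69.4 CPM in chow control. It rose by 0.31 (SE 0.10, adjusted p = 0.0117, edgeR), and the ranges overlapped through the lowest HFHF control library. Rpl39, which lines the peptide exit tunnel, rose by 0.27 (SE 0.09), Rpl31 by 0.26 (SE 0.09) and Rpl29 by 0.19 (SE 0.08).

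The 3 falls on the HFHF diet were in abundant genes. Rpl3 (chr15:80077791-80091868), which lies close to the peptidyl transferase centre, had 183, 195 and 217 CPM in its lowest, median and highest HFHF control library, against 276, 213, 208, 236 and 224 CPM in chow control. Rps2 (chr17:24718116-24721929) had 339, 365 and 391 CPM in HFHF control libraries, against 471, 411, 429.6, 399 and 395 CPM in chow control. Rpl4 (chr9:64173375-64178666), a protein of the exit tunnel wall, had 357, 378 and 407 CPM in HFHF control libraries, against 489, 398, 415, 443.5 and 420.4 CPM in chow control. In all of them chow control replicate 1 was the highest library. The log2 fold changes were -0.21 for Rpl3 (SE 0.07), -0.21 for Rps2 (SE 0.06) and -0.19 for Rpl4 (SE 0.06). These 3 calls were lost without chow control replicate 1, with -0.11, -0.13 and -0.11, and also with upper-quartile scaling.

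Transcript length ran along with the diet values. When the 77 ribosomal proteins proper were split into 3 sets by transcript length, the 26 shortest (271 to 583 bases) had a median log2 fold change of 0.10, with 5 rises and 0 falls. The 26 of 589 to 860 bases had a median of 0.02 with 3 rises, and the 25 of 878 to 3706 bases a median of 0.00 with 0 rises and 3 falls. In the gRNA comparison the same sets had medians of -0.16, -0.19 and -0.18, with 8, 20 and 15 falls. The split was made after the values were seen.

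On the diet, 11 of 11 monocyte-derived macrophage markers were higher and 9 of 11 hepatocyte markers were lower, with the summed levels given above. Their part in the ribosomal protein values was not tested. Of the 17 TOP translation genes 3 rose and 5 fell, in a contrast with 28.1% of all genes higher and 28.9% lower. Nap1l1 rose to 111.5 ± 10.97 CPM in HFHF control against 60.05 ± 5.61 CPM in chow control libraries (0.89, SE 0.08), and Eef2, elongation factor eEF2, fell to 671 ± 34.0 CPM in HFHF control against 944 ± 71.4 CPM in chow control libraries (-0.49, SE 0.11). Of 36 biogenesis genes 5 rose and 5 fell, with Eif6 higher (0.82, SE 0.09) and Nhp2, a protein of pseudouridylation particles, higher (0.67, SE 0.10). Of 14 RNA polymerase I genes 2 rose and 3 fell, and of 9 TOP regulators 2 rose and 4 fell, among them Larp1 (-0.54, SE 0.09). Rack1 and Fau did not pass. Of 78 mitochondrial ribosomal proteins 17 rose and 13 fell.

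The third comparison sets gRNA livers on the HFHF diet against untreated chow livers, so diet, vehicle or virus, and guide differ together and cannot be told apart. Of the 83 ribosomal protein genes 22 were lower (26.5%), 1 was higher and 60 did not pass. Of all genes 21.7% were lower and 20.9% were higher, so the lower share was near the background. The median log2 fold change was -0.14 for the ribosomal protein genes and 0.00 for all genes, and 69 of 83 lay below 0. Every gRNA library lay below every chow control library in 5 genes, Rpl3, Rpl4, Rpl7a, Rpl8 and Rpsa, and above in Rps27l, against 8.96% of all genes below and 9.03% above. Without chow control replicate 1 the count of lower genes was 6 (7.23%, against 17.7% of all genes). With no filter on low counts it was 13 (15.3%, against 10.6% of all genes). In the same contrast 9 of 11 monocyte-derived macrophage markers were higher and 6 of 11 hepatocyte markers were lower, and their part was not tested. This contrast shares its libraries with the other 2, so its values are no separate evidence.

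Rpsa (chr9:120127689-120132369) had 205, 225 and 246 CPM in its lowest, median and highest gRNA library, against 331, 268, 274, 279 and 284 CPM in chow control. It was lower at -0.35 (SE 0.07, adjusted p = 0.000404, edgeR), and its level in HFHF control, 257 ± 20.7 CPM, lay between the other groups. Rpl27a (chr7:109519147-109522367) had 150.1, 170.0 and 196 CPM in gRNA libraries, against 253, 196, 211, 212 and 206 CPM in chow control libraries. It was lower at -0.34 (SE 0.08, adjusted p = 0.00162, edgeR), with the highest gRNA library just above the lowest chow control library.

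Rpl3 had 173, 182 and 204 CPM in its lowest, median and highest gRNA library, below every chow control library, and was lower at -0.33 (SE 0.07, adjusted p = 0.000633, edgeR). Rpl4 had 328, 349 and 378 CPM in gRNA libraries, also below every chow control library, and was lower at -0.31 (SE 0.06, adjusted p = 0.000351, edgeR). Both calls held without chow control replicate 1. Rps18, at the head of the small subunit, was lower at -0.29 (SE 0.09, adjusted p = 0.0119, edgeR). Its call was lost without chow control replicate 1, at -0.20. Rack1 was lower in this contrast too (-0.34, SE 0.06, adjusted p = 0.000170, edgeR).

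The paralogue Rps27l was higher in both HFHF groups than in chow control. It is a known target of p53 and can stand in for Rps27 in the small subunit. Rps27l (chr9:66946086-66949516) had 85.6, 101 and 136 CPM in its lowest, median and highest gRNA library and 90.2, 109 and 119 CPM in HFHF control. Chow control libraries had 83.03, 84.4, 84.3, 84.15 and 80.9 CPM, below every library of both HFHF groups. It was higher by 0.35 in HFHF control against chow control (SE 0.09, adjusted p = 0.00205, edgeR) and by 0.32 in gRNA against chow control (SE 0.09, adjusted p = 0.00457, edgeR). Between gRNA and HFHF control the value was -0.02, with a 95% interval of -0.18 to 0.14. Rps27 itself (chr3:90212522-90213651) averaged 92.6 ± 14.9 CPM in gRNA, 104 ± 9.44 CPM in HFHF control and 101 ± 6.51 CPM in chow control libraries and passed in no comparison.

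The ratio of Rps27l to Rps27, taken within a library, does not depend on scaling. It was 1.14 ± 0.159 in gRNA, 1.02 ± 0.0786 in HFHF control and 0.826 ± 0.0509 in chow control libraries (SD). Chow control libraries ran from 0.738 to 0.868 and lay below the lowest gRNA library at 0.948 and the lowest HFHF control library at 0.903. The log2 ratio was higher by 0.31 in HFHF control against chow control (two-sided exact permutation p = 0.00126, adjusted p = 0.00932 over 12 tests of paralogue ratios). It was higher by 0.45 in gRNA against chow control (exact permutation p = 0.00155, adjusted p = 0.00932). Between gRNA and HFHF control the difference of 0.15 did not pass (exact permutation p = 0.111, adjusted p = 0.445). All Rps27l values were whole, while no Rps27 value was, so the denominator may include reads shared out among other loci.

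**Figure D5:**
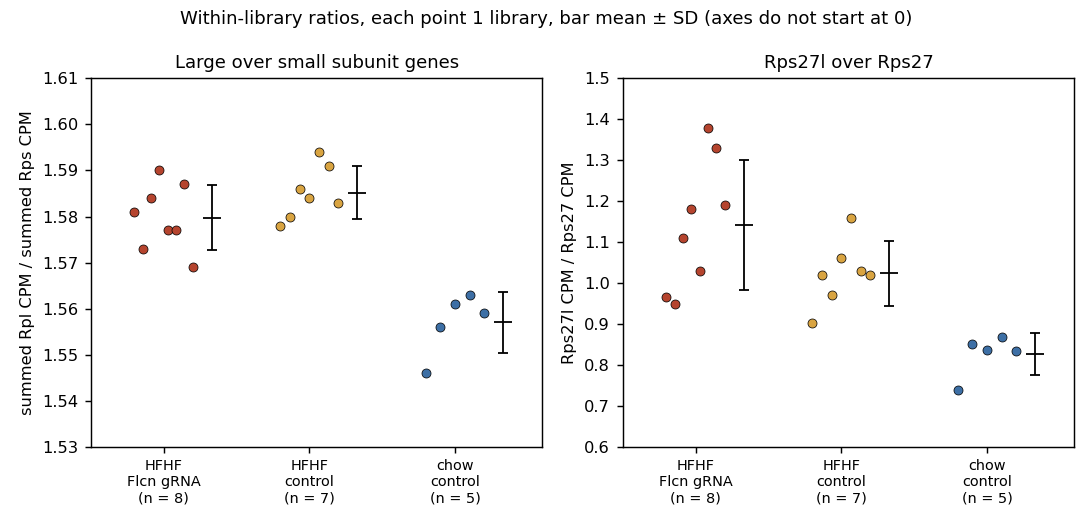
Ratios taken within each library, summed large-subunit over summed small-subunit CPM on the left and Rps27l over Rps27 CPM on the right; each point is 1 library, bars are mean ± SD and the axes do not start at 0. The chow control libraries lie below both HFHF groups in each panel, at 1.546 to 1.563 and at 0.738 to 0.868.

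Of 14 other p53 target genes, 10 were higher and 1 lower in HFHF control against chow control. Among all genes 28.1% were higher and 28.9% lower there. In gRNA against chow control 10 were higher and 1 lower, against 20.9% of all genes higher and 21.7% lower. In gRNA against HFHF control 2 fell and 0 rose, against 19.0% of all genes lower and 19.6% higher. The part of p53 in the Rps27l values was not tested. Cdkn1a, the cell cycle inhibitor p21, averaged 12.95 ± 6.04 CPM in gRNA, 36.5 ± 10.46 CPM in HFHF control and 6.80 ± 2.66 CPM in chow control libraries. Its log2 fold change was -1.48 in gRNA against HFHF control (SE 0.26, adjusted p = 0.000211, edgeR) and 2.43 in HFHF control against chow control (SE 0.33, adjusted p = 6.5e-06, edgeR).

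The other paralogue ratios did not pass. Rpl22l1 over Rpl22, a pair of RNA-binding large-subunit proteins, was 0.296 ± 0.0509 in gRNA, 0.304 ± 0.0564 in HFHF control and 0.324 ± 0.0388 in chow control libraries. Rpl36al over Rpl36a was 1.79 ± 0.183, 1.67 ± 0.134 and 1.69 ± 0.0895 in gRNA, HFHF control and chow control libraries. No value of either gene was whole, so their reads may have been shared among loci. Rpl7l1 over Rpl7 was 0.233 ± 0.0280, 0.233 ± 0.0182 and 0.236 ± 0.0316 in gRNA, HFHF control and chow control libraries. The lowest exact permutation p of these 9 tests was 0.188, with an adjusted p of 0.563. Rpl3l, Rpl10l and Rpl39l had too few counts for a ratio in any group.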

How the data were processed

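Liver mRNA of 20 libraries was read single-end with molecular identifiers in the adapters, per the labels' protocols. The authors deposited 1 table of estimated counts per gene, which the values show to be unscaled and partly not whole numbers. The build was GRCm38 per the submitters' processing notes. The sources used here do not give the aligner, counting tool, annotation, strand setting or any use of the identifiers. Reads of overlapping antisense genes could not be told apart, and the limit given for a count of 0 (3 counts over all libraries) covers counting error only. Columns were matched by title, and 1 unmatched column was not used. The 22 construct features (2.2e-06% of counts) were left out.

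Estimated counts were rounded, filtered with filterByExpr (13667 of 32400 genes kept) and scaled by TMM in edgeR 4.0.16 (R 4.3.3). All groups entered 1 quasi-likelihood fit with 17 residual degrees of freedom, Benjamini-Hochberg adjusted with a threshold of 0.05, and the procedure was tested on simulated counts. Paralogue ratios used log2 of CPM + 0.5 and exact permutation. Members, lists and tests were chosen with earlier results of these data known.

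In each comparison the genes named were up to 6 rises and 6 falls of largest size past the threshold, the 3 highest and 3 lowest per kilobase, paralogues, members with a known role, and up to 3 genes of smallest p per list of ribosome-related genes. Rpl23a, Rpl29, Rpl31, Rpl39, Cdkn1a, Ly6g, the non-overlapping genes and the 4 genes with printed sequence were added after their values were seen. Some items are not reported here. Gene length was that of the shortest transcript of the best APPRIS class (GENCODE M21), a rule changed after values were seen. Alternatives were DESeq2 1.42.0, other scalings and filters, pseudogene rows added, 2-group fits and each library left out.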

Additional observations from a re-analysis of the deposited data

Results flagged for a closer look

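For 35 ribosomal protein genes and their sum, the values of each group were searched for 1 library far from the others of its group (Dixon's test), 108 sets in all. Chance alone would mark about 1 in 20 sets if the sets were independent, and 10 were marked. They are not independent, because single libraries shifted nearly the whole family, so the 10 cannot be set against that rate. In HFHF Flcn gRNA replicate 8, Rpl22l1 had 37.0 CPM against 22.6 to 29.1 CPM in the other gRNA libraries, Rpl38 had 95.6 CPM against 60.1 to 71.7 CPM, and Rps27l had 135.8 CPM against 85.65 to 108 CPM. In gRNA replicate 2, Rpl7 had 273.9 CPM against 212.5 to 239 CPM in the others. In chow control replicate 1, Rpl22 had 104.9 CPM against 91.1 to 95.05 CPM in the other chow control libraries. In that library Rpl36a had 93.2 CPM against 78.65 to 82.4 CPM, Rps20 had 105.4 CPM against 84.5 to 89.4 CPM, Rps27 had 112.5 CPM against 96.9 to 100.8 CPM, and Rpsa had 331.2 CPM against 268 to 284 CPM. In chow control replicate 5, Rpl7l1 had 73.8 CPM against 53.3 to 59.1 CPM in the others. Each was the highest value of its group.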

How the results depend on the processing

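The median of the family in the gRNA comparison kept its direction under every alternative run. Over all alternatives the median log2 fold change was -0.22 to -0.15. With no filter 33 genes were lower (38.8%, against 12.0% of all genes), and with upper-quartile scaling 64 (77.1%, against 23.4%). Leaving out each library in turn gave 22 to 61 lower genes (26.5 to 73.5%, against 17.0 to 20.1% of all genes). On the diet, upper-quartile scaling gave 29 higher and 0 lower genes (34.9% and 0%, against 33.8% and 21.9% of all genes). The stricter filter gave 14 higher (16.9%, against 28.0%), and no filter 0 lower (against 15.2%). Leaving out libraries gave 8 to 21 higher there (9.64 to 25.3%, against 26.7 to 30.7%) and 0 to 4 lower (0 to 4.82%, against 23.9 to 29.0%). In gRNA against chow control, no filter gave 13 lower genes (15.3%, against 10.6%). Leaving out libraries gave 6 to 25 lower (7.23 to 30.1%, against 17.4 to 21.5%). Without scaling the summed level was 14421 in HFHF control and 11674 in chow control libraries, as counts scaled to library size. The cause of these moves was not tested. Upper-quartile scaling gave a share of called genes that were higher of 37.8% against 50.7% in the gRNA comparison and 60.7% against 49.4% in the diet comparison, and moved the median of all genes by less than 0.1. Paralogue ratios near no difference changed sign as libraries were left out. Rpl7l1 over Rpl7 ran from -0.0382 to 0.0478 (gRNA against HFHF control), -0.0573 to 0.065 (HFHF control against chow) and -0.0646 to 0.0576 (gRNA against chow). Rpl22l1 over Rpl22 ran from -0.0871 to 0.0233 (gRNA against HFHF control) and Rpl36al over Rpl36a from -0.048 to 0.0097 (HFHF control against chow). Rps27l over Rps27 kept its calls when libraries were left out, at 0.27 to 0.34 (HFHF control against chow) and 0.41 to 0.49 (gRNA against chow). Of 756 recomputed values of named genes, 41 lost their call and none changed sign. No paired analysis was possible because the labels carry no replicate numbers.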
